A study of Ovis aries with 115 samples.

Results

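The 200 genes whose RNA was higher in the luteal than in the follicular cervix of synchronised ewes of 4 sheep breeds are described here, first in the ewes that chose them and then in ewes of a natural follicular phase. RNA of the mid-cervix was sequenced as 115 libraries, 1 per ewe, from Belclare and Suffolk ewes in Ireland and from Fur (FUR in the labels) and Norwegian White Sheep (NWS, Norwegian in the labels) ewes in Norway. Synchronised ewes, labelled as an induced cycle, had received a progestagen sponge and then equine chorionic gonadotropin, and natural ewes had not. In the order Belclare, Fur, NWS and Suffolk, the synchronised follicular group numbered 10, 8, 10 and 11 ewes, the synchronised luteal group 10, 9, 8 and 10, and the natural follicular group 10, 10, 10 and 8. All ewes for which the study describes the animals were multiparous. Each breed was kept in 1 country, so effects of breed and country cannot be told apart where Fur or NWS ewes are compared with Belclare or Suffolk ewes. The labels hold no natural luteal group, and the authors' methods describe only the synchronised follicular ewes, so how the luteal phase was established is taken from the labels alone. One further library has a title that places it in the natural follicular phase and other labels that place it in the synchronised luteal phase, and it entered no group.

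The members were chosen from the measured values. Counts were divided by the total of their library to give CPM, the usual scaling to library size, then 0.5 was added and the log2 taken. Of 27054 gene identifiers, the 15448 with at least 1 CPM in at least 10 of the 76 synchronised libraries were ranked by the smallest of their 4 breed differences, the mean of the luteal ewes minus the mean of the synchronised follicular ewes. The 200 genes of highest rank were kept, so the luteal excess described next is what chose them and carries no test. Only 11 of them have a gene name in the sources used here: ADAM7, AQP9, FMO2, TEX14, PRODH, OAS1, GRAMD1B, NRG2, OAS2, AP3B2 and TFAP4. Names came from the study's lists of genes that differ between breeds in synchronised follicular ewes, so the named members were in part picked for breed differences, and the 189 others are known by their identifier alone.

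Background helps to read these states. In the follicular phase, oestrogen from the growing follicle makes the cervix soften and secrete fluid mucus through which sperm can pass, and in the luteal phase, progesterone from the corpus luteum closes the canal with thick mucus. Progesterone acts through its nuclear receptor in epithelial, stromal and muscle cells, and the balance of secretion, immune surveillance and matrix turnover in the cervix shifts with the cycle. Whole tissue was sequenced, so fewer cells of a type and less RNA per cell cannot be told apart in any value given here.

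Total counts per library ranged from 12238996 to 31261671 over all 115 libraries, and no pair of libraries of the same group agreed within counting noise. Several libraries stood apart in the mean of the 200 members on the log2 scale. NWS luteal replicates 1 and 6 were at 2.98 and 3.07, below NWS synchronised follicular replicate 7 at 3.26. Suffolk luteal replicate 7 was at 2.84, below 3 of the 11 synchronised follicular Suffolk ewes, of which the highest was at 3.04. Fur synchronised follicular replicate 3 was at 3.76, against 2.11 to 2.73 in the other Fur ewes of that phase. Belclare luteal replicate 7 at 3.43 and Fur luteal replicate 8 at 3.86 were lower than the rest of their groups. Without these 6 libraries (chosen after the data were examined, 5 luteal and 1 synchronised follicular), the same ranking kept 177 of the 200 members.

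The members' mean separated the luteal ewes from both follicular groups in every breed by its median. In Belclare it ranged from 1.94 to 3.08 in synchronised follicular ewes (median 2.30) and from 3.43 to 4.56 in luteal ewes (median 4.48), so the ranges did not overlap. In Fur it ranged from 2.11 to 3.76 (median 2.33) and from 3.86 to 4.55 (median 4.35), again without overlap. In NWS the ranges were 1.96 to 3.26 (median 2.18) and 2.98 to 4.79 (median 4.43). The NWS ranges overlapped only through the luteal replicates 1 and 6 named above and follicular replicate 7. In Suffolk they were 1.68 to 3.04 (median 2.17) and 2.84 to 4.61 (median 3.77), and the luteal median was the lowest of the 4 breeds.

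**Figure D1:**
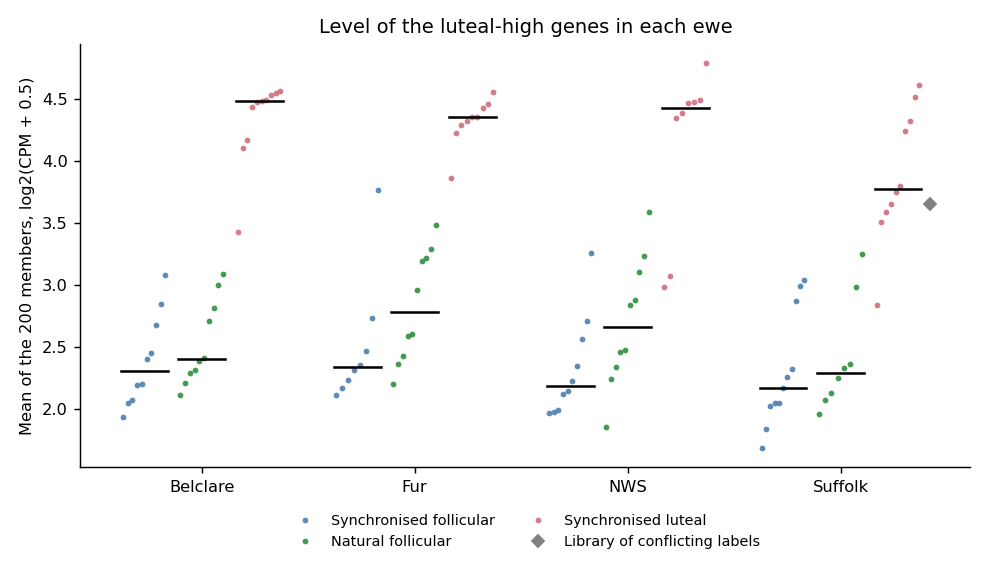
Mean log2(CPM + 0.5) of the 200 members in each ewe (points), by breed on the horizontal axis and by cycle and phase in colour, with the group median as a black bar. Luteal medians are 4.48, 4.35, 4.43 and 3.77 in Belclare, Fur, NWS and Suffolk, natural follicular medians are 2.40, 2.78, 2.66 and 2.29, and the diamond is the library of conflicting labels at 3.65.

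The smallest breed difference, the value that ranked the members, ran from 1.02 to 3.73 on the log2 scale, which is 2.03-fold to 13.2-fold, with a median of 1.27. It was 1.5 or more for 53 members and 2 or more for 19. The last 3 members were at 1.01986, 1.01861 and 1.01854, and the first 3 genes left out at 1.017, 1.01646 and 1.01417, so the limit cuts through a continuous series of values. Suffolk gave the smallest difference for 103 of the 200 members, Belclare for 36, Fur for 33 and NWS for 28. The median luteal difference of the members was 1.65 in Belclare, 1.59 in Fur, 1.66 in NWS and 1.43 in Suffolk. All 15448 genes had medians of 0.15, 0.16, 0.18 and 0.15 in the same order, a shift that TMM-scaled library sizes brought to between -0.003 and 0.014. The members' medians were then 1.49, 1.45, 1.49 and 1.29, and all 200 remained higher in the luteal mean of every breed.

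Luteal levels of most members were well above detection. The mean of the luteal ewes ranged from 1.64 to 1126 CPM over the members with a median of 18.7 CPM, and none was under 1 CPM. In synchronised follicular ewes 28 of the 200 members had a mean under 1 CPM, and in natural follicular ewes 22 did. Members at 3 counts or fewer in every synchronised follicular ewe of a breed numbered 1 in Belclare, 1 in Fur, 3 in NWS and 2 in Suffolk. Ranges of single members mostly overlapped between the phases. Every luteal ewe was above every synchronised follicular ewe for 50 members in Belclare, 42 in Fur, 39 in NWS and 17 in Suffolk, where the same was true of 1.64%, 7.28%, 3.23% and 1.72% of all genes. These counts rest on the values that chose the members.

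The member of highest rank has no name (ENSOARG00000010539). Its level ranged from 1.23 to 9.33 CPM in the synchronised follicular Belclare ewes (median 4.37) and from 39.6 to 187 CPM in the luteal ones (median 153). In Fur the follicular ewes had 1.30 to 135 CPM (median 2.58) and the luteal ewes 97.8 to 364 CPM (median 229), the follicular ewe at 135 CPM being replicate 3. In NWS it ranged from 1.48 to 10.1 CPM (median 3.80) and from 6.37 to 277 CPM (median 165.2). In Suffolk the follicular ewes had 0.180 to 16.8 CPM (median 3.66) and the luteal ewes 4.83 to 251 CPM (median 38.5), which overlapped. The luteal mean was 24.7-fold, 38.4-fold, 22.5-fold and 13.2-fold the follicular mean on the log2(CPM + 0.5) scale in Belclare, Fur, NWS and Suffolk.

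ADAM7, a member of the ADAM family of membrane proteins that lacks protease activity and is known from the epididymis and sperm, took second place and had the largest named luteal excess in Belclare. Belclare ewes had 0.276 to 2.93 CPM in the synchronised follicular phase (median 1.54) and 3.52 to 548 CPM in the luteal phase (median 157), which did not overlap. Fur ewes had 0.216 to 36.4 CPM (median 0.436) and 3.81 to 278 CPM (median 40.7). Only Fur follicular replicate 3, at 36.4 CPM, lay among the luteal values, since the other 7 follicular Fur ewes reached 1.30 CPM at most. NWS ewes had 0.173 to 0.941 CPM (median 0.403) and 0.261 to 99.9 CPM (median 31.7), with NWS luteal replicate 1 at the lower end. In Suffolk the luteal ewes split, with a range of 0.398 to 111 CPM and a median of 2.01 CPM, against 0.195 to 1.37 CPM (median 0.480) in the follicular ewes. The differences were 5.78, 4.72, 3.98 and 2.85 on the log2 scale in Belclare, Fur, NWS and Suffolk.

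AQP9, a channel for water, glycerol and other small solutes that is also carried by neutrophils, was sixth. In Belclare it went from 0.184 to 2.05 CPM in synchronised follicular ewes (median 0.982) and from 15.1 to 165 CPM in luteal ewes (median 64.0). In Fur it was 0.324 to 111 CPM (median 1.20) and 23.9 to 138 CPM (median 68.1), with follicular replicate 3 again the one follicular ewe within the luteal range. NWS had 0.185 to 5.85 CPM (median 0.739) and 0.364 to 136 CPM (median 30.5). Suffolk follicular ewes had the highest follicular median of AQP9, 3.696 CPM over a range of 0.181 to 11.6 CPM, and the luteal ewes had 2.92 to 148 CPM (median 19.9). The log2 differences were 5.58, 4.29, 3.63 and 2.44.

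AQP9 stands on the list of myeloid genes and on that of ion and water transport, and neither list shared its size of difference. Of the 13 myeloid identifiers, 4 had a higher luteal mean in all 4 breeds and 3 a lower one, and among all genes 47.4% were higher and 20.04% lower. These shares depend on the scaling, and with TMM-scaled libraries 32.1% of all genes were higher and 32.4% lower in all 4 breeds. Besides AQP9, the myeloid genes ITGAX (mean log2 difference 0.73), FES (0.44) and ITGB2 (0.29) were higher in the luteal mean of every breed. The neutrophil receptor CXCR2 (-1.23), IFI30 (-1.12) and PADI4, an enzyme of neutrophils (-3.22), were lower in every breed. CD177, also of neutrophils, was higher in Fur and NWS and lower in Belclare and Suffolk. The summed level of the myeloid list ranged from 203 to 818 CPM in synchronised follicular ewes (median 506) and from 185 to 602 CPM in luteal ewes (median 441), with no gene of the list at 0 in all libraries. Among transport genes the epithelial sodium channel subunit SCNN1A (mean difference 0.90) and the phosphate carrier SLC34A2 (0.997) were higher in every breed. The chloride channel CFTR (-1.30) and the proton pump ATP12A (-1.63) were lower in every breed.

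FMO2, a flavin monooxygenase that oxidises drugs and other sulphur- and nitrogen-containing compounds, was 11th. Its luteal range was 1.65 to 44.9 CPM in Belclare (median 11.4), 2.85 to 20.1 CPM in Fur (median 7.43), 3.33 to 41.7 CPM in NWS (median 7.997) and 2.42 to 41.2 CPM in Suffolk (median 11.3). Its synchronised follicular range was 0.278 to 6.25 CPM (median 1.80), 0.200 to 1.66 CPM (median 0.516), 0 to 19.2 CPM (median 2.29) and 0.130 to 5.40 CPM (median 0.800). Fur was the only breed in which the FMO2 ranges did not overlap. Its 4 differences, 2.52, 3.02, 2.25 and 2.75, lay closer together than those of ADAM7 and AQP9.

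PRODH, the mitochondrial enzyme of the first step of proline breakdown, had a luteal median of 113 CPM in Belclare (29.1 to 224 CPM), 40.4 CPM in Fur (22.6 to 106 CPM), 57.3 CPM in NWS (8.79 to 121 CPM) and 60.8 CPM in Suffolk (32.5 to 117 CPM). Synchronised follicular medians were 23.7, 10.5, 8.97 and 23.1 CPM in the same order. TEX14, which is known from the bridges that join germ cells, had luteal medians of 14.1, 9.44, 13.7 and 14.9 CPM and follicular medians of 3.35, 2.83, 2.38 and 2.995 CPM. For PRODH and TEX14 the luteal and follicular ranges were apart only in Fur.

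**Figure D2:**
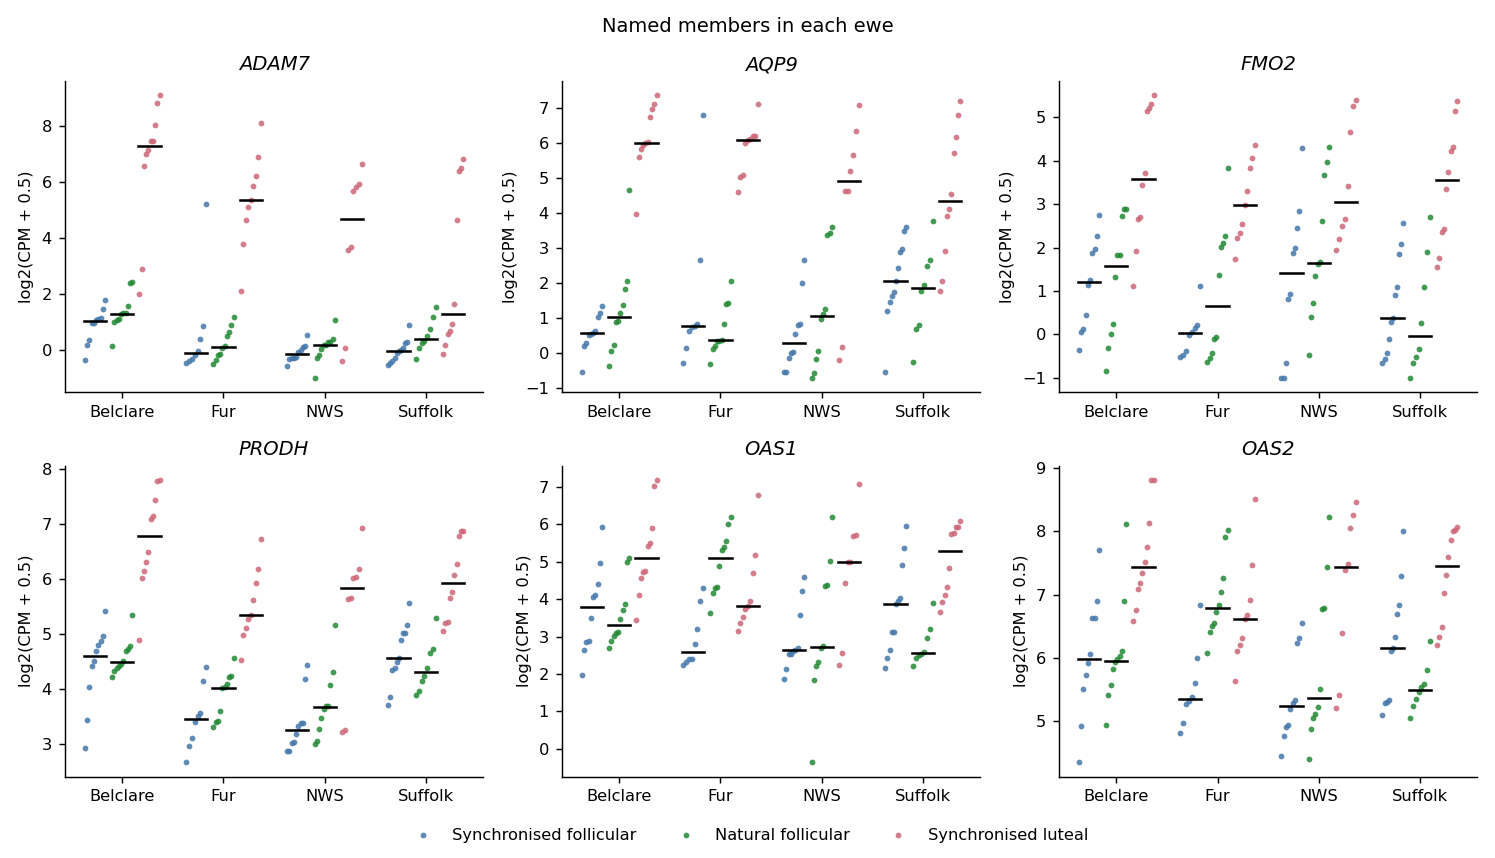
Level of 6 named members in each ewe on a log2(CPM + 0.5) axis, by breed and by cycle and phase, with group medians as black bars. ADAM7 and AQP9 are low in nearly all follicular ewes of both cycles and high in most luteal ewes, and OAS1 and OAS2 in Fur reach higher medians in natural follicular than in luteal ewes.

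The 5 named members of lower rank had smaller differences. GRAMD1B, which moves cholesterol from the plasma membrane to the endoplasmic reticulum, had luteal medians of 88.5, 51.5, 48.6 and 68.8 CPM in Belclare, Fur, NWS and Suffolk and synchronised follicular medians of 18.8, 17.3, 18.5 and 26.6 CPM. NRG2, a neuregulin that binds ErbB receptors, had luteal medians of 28.8, 27.6, 19.6 and 24.8 CPM and follicular medians of 8.86, 7.49, 8.59 and 14.6 CPM. AP3B2, a subunit of the AP-3 vesicle adaptor best known in neurons, had luteal medians of 10.2, 4.07, 4.98 and 7.01 CPM and follicular medians of 1.91, 0.873, 1.15 and 1.99 CPM. TFAP4, a helix-loop-helix transcription factor, had the least spread within groups of these members. Its luteal range was 11.8 to 19.9 CPM in Belclare (median 15.7), 13.3 to 19.97 CPM in Fur (median 14.4), 9.09 to 20.7 CPM in NWS (median 15.7) and 10.7 to 22.2 CPM in Suffolk (median 16.9). The follicular medians of TFAP4 were 6.95, 5.91, 5.71 and 8.21 CPM, and its ranges did not overlap in Belclare and Fur. Its smallest difference was 1.04, the lowest of the 11 named members.

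OAS1 and OAS2, which are induced by interferon and make short oligoadenylates when they meet double-stranded RNA, were both members. OAS1 was at 3.44 to 59.9 CPM in synchronised follicular Belclare ewes (median 13.5) and at 10.4 to 145 CPM in luteal ones (median 34.4). In Fur, NWS and Suffolk its follicular medians were 5.62, 5.69 and 14.2 CPM and its luteal medians 13.6, 31.4 and 40.5 CPM, and the ranges overlapped in all 4 breeds. OAS2 had follicular medians of 63.0, 40.4, 37.4 and 71.0 CPM and luteal medians of 172, 97.8, 173 and 176 CPM in Belclare, Fur, NWS and Suffolk. The smallest breed difference was 1.25 for OAS1 and 1.07 for OAS2, both in Suffolk.

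The other interferon-response genes were mostly, but not all, higher in luteal ewes. Of the 18 identifiers on that list that are not members, 12 (66.7%) had a higher luteal mean in all 4 breeds and 1 a lower one, beside 47.4% of all genes that were higher. With TMM-scaled libraries 11 of the 18 were higher and 2 lower, beside 32.1% of all genes that were higher. The median of their mean difference was 0.56, against 0.17 for all genes. ISG15, a ubiquitin-like protein induced by interferon, was nearest to membership at place 299 with a mean difference of 1.30, followed in rank by DHX58 (0.68), a regulator of RNA sensing, and IRF1 (0.74), an interferon-regulated transcription factor. MX1, a GTPase that blocks virus replication, had a mean difference of 0.61. TRANK1 was lower in every breed (-0.55). Only genes that the study names could be found on this and the other lists, and the lists were chosen with results known, so these counts are descriptions.

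Of all genes 47.4% had a higher luteal mean in all 4 breeds and 20.04% a lower one (32.1% and 32.4% with TMM-scaled libraries). Of the 21 lymphoid identifiers, 13 had a higher luteal mean in all 4 breeds and 3 a lower one (12 and 5 with TMM-scaled libraries). Among those higher was GNLY, a granule protein of cytotoxic lymphocytes, with a mean difference of 1.11. The summed lymphoid level was nearly the same in both phases, with a median of 153 CPM over 70.8 to 316 CPM in synchronised follicular ewes and 144 CPM over 37.7 to 322 CPM in luteal ewes. The 5 endothelial markers summed to a median of 777 CPM in follicular and 1017 CPM in luteal ewes, and 3 of the 5 were higher in all 4 breeds (1 with TMM-scaled libraries). Epithelial junction genes summed to 2701 and 2489 CPM in the median, and 5 of 21 were higher in every breed and 3 lower, which TMM-scaled libraries turned to 4 higher and 5 lower. Smooth muscle genes summed to 30.1 to 11416 CPM in follicular and 90.1 to 9012 CPM in luteal ewes, ranges that pool the 4 breeds. Of the 6 genes 1 was higher in every breed (ASB2) and 1 lower (ACTC1). The sign could differ between breeds, as for DES with luteal differences of 1.08, -0.48, -0.84 and 1.86 in Belclare, Fur, NWS and Suffolk. No gene of these lists was at 0 in all libraries, and the part of cell composition in the members' values was not tested.

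On other lists more genes were lower than higher in luteal ewes, under both scalings. The counts below are on total counts, where 20.04% of all genes were lower and 47.4% higher in all 4 breeds. Matrix and fibroblast genes were lower in all 4 breeds for 18 of 29 identifiers and higher for 4, and Notch and Wnt genes for 11 of 17 and 4. Lysosomal genes were lower for 13 of 24 and higher for 3. Mucus and secretion genes were lower for 7 of 13 and higher for 2, with the gel-forming mucins MUC5B and MUC5AC at mean differences of -0.84 and -0.83. Oestrogen-response genes were lower for 3 of 5. The 11 genes known from progesterone signalling in the uterus were lower for 8 and higher for 1, PTCH1, the receptor of hedgehog ligands, at 0.81. HSD11B1, which regenerates active glucocorticoid, was at -2.46, and the retinol transporter STRA6 at -2.47.

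Natural follicular ewes took no part in choosing the members, so their levels show how the genes stand in the other follicular phase. Their values are compared with the 2 synchronised groups by description only, since those groups chose the members. The members' mean was close to that of synchronised follicular ewes. In Belclare it ranged from 2.11 to 3.08 with a median of 2.40, in Fur from 2.20 to 3.48 with a median of 2.78, in NWS from 1.85 to 3.59 with a median of 2.66, and in Suffolk from 1.96 to 3.25 with a median of 2.29. In Belclare and Fur every luteal ewe was above every natural follicular ewe. In NWS the luteal replicates 1 and 6 lay within the natural range, and in Suffolk luteal replicate 7 did.

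Member by member, the natural follicular mean lay slightly above the synchronised follicular mean in most cases. It was above for 148 of 200 members in Belclare, 161 in Fur, 174 in NWS and 129 in Suffolk, where 58.2%, 57.5%, 43.3% and 56.4% of all genes were above. The median difference was 0.14, 0.28, 0.34 and 0.10 on the log2 scale, beside medians of 0.02, 0.05, -0.04 and 0.03 for all genes. The members were chosen for low synchronised follicular values, so the sign of this difference is not independent of the choice. Without the 6 libraries that stood apart, the median in Fur was 0.45 in place of 0.28, and the other 3 kept their values because those libraries are luteal. No member had every natural ewe of a breed above every synchronised follicular ewe. This held for only 0%, 0.246%, 0.00647% and 0% of all genes in Belclare, Fur, NWS and Suffolk.

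The luteal mean exceeded the natural follicular mean by a median of 1.52 in Belclare, 1.34 in Fur, 1.31 in NWS and 1.34 in Suffolk. It was higher in all 4 breeds for 192 of the 200 members, beside 45% of all genes. Every luteal ewe was above every natural ewe for 38 members in Belclare, 42 in Fur, 13 in NWS and 11 in Suffolk, where this held for 1.01%, 4.92%, 2.1% and 0.693% of all genes. A natural mean nearer to the luteal than to the synchronised follicular mean was found for 0, 18, 9 and 10 members in Belclare, Fur, NWS and Suffolk. The natural mean was above the luteal mean for 0, 6, 0 and 2 members in the same order.

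**Figure D3:**
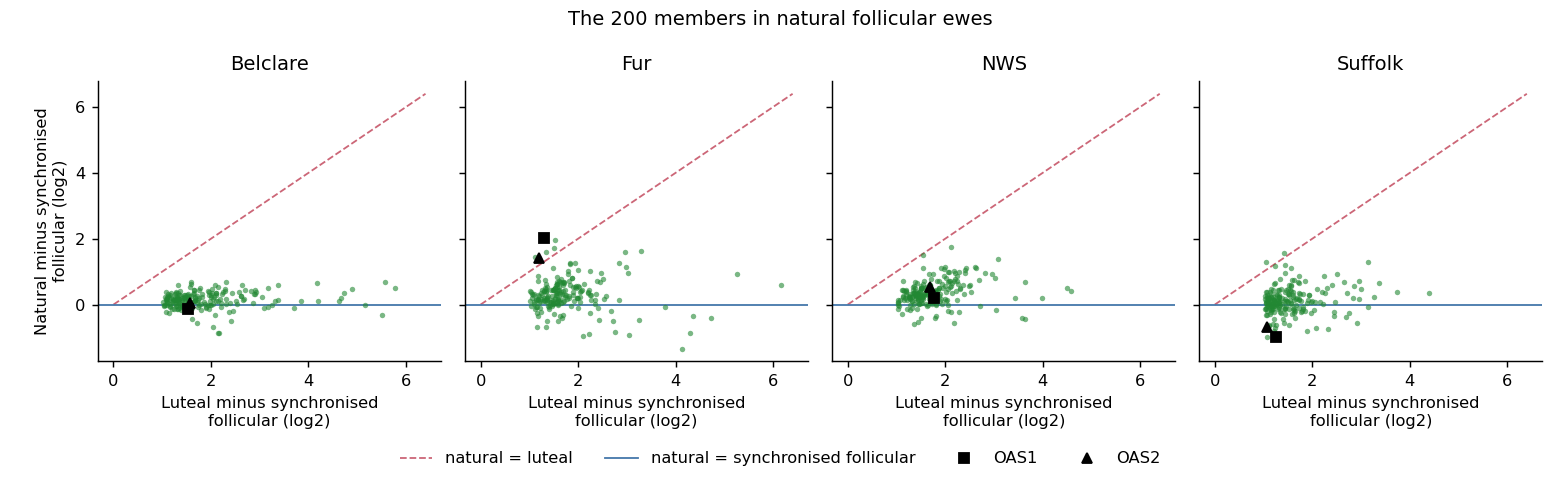
Each point is 1 member in 1 breed, with the luteal minus synchronised follicular difference on the horizontal axis and the natural minus synchronised follicular difference on the vertical axis, both in log2. Points lie close to the horizontal line, where natural and synchronised follicular ewes are equal, with medians of 0.14, 0.28, 0.34 and 0.10. OAS1 and OAS2 are among the 6 members that in Fur lie above the dashed line, at which natural ewes equal luteal ewes.

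ADAM7 and AQP9 were low in natural follicular ewes of every breed. ADAM7 ranged from 0.612 to 4.91 CPM in Belclare (median 1.95), 0.207 to 1.76 CPM in Fur (median 0.577), 0 to 1.59 CPM in NWS (median 0.635) and 0.291 to 2.39 CPM in Suffolk (median 0.828). AQP9 ranged from 0.278 to 24.7 CPM in Belclare (median 1.55), 0.306 to 3.64 CPM in Fur (median 0.785), 0.111 to 11.7 CPM in NWS (median 1.58) and 0.337 to 13.2 CPM in Suffolk (median 3.15). In Fur the natural range of both genes lay wholly below the luteal range. ENSOARG00000010539 reached 16.8, 22.4, 11.6 and 31.2 CPM at most in the natural ewes of Belclare, Fur, NWS and Suffolk, and its luteal and natural ranges were apart in Belclare and Fur.

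TEX14 stood between the phases in Fur and NWS. It had natural medians of 2.03 CPM in Belclare and 1.81 CPM in Suffolk, while Fur and NWS had 5.26 and 5.72 CPM. The natural mean of TEX14 was 1.02 and 0.997 above the synchronised follicular mean in Fur and NWS on the log2 scale, and -0.43 and -0.56 from it in Belclare and Suffolk. NRG2 had natural medians of 13.4, 11.6, 10.3 and 15.8 CPM, and its natural minus synchronised follicular difference was 0.41 in Belclare, 0.84 in Fur, 0.44 in NWS and -0.05 in Suffolk.

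OAS1 and OAS2 departed from the other named members in Fur. OAS1 in natural follicular Fur ewes ranged from 11.8 to 72.4 CPM with a median of 34.0 CPM, above the luteal median of 13.6 CPM and the synchronised follicular median of 5.62 CPM. OAS2 there ranged from 66.7 to 259 CPM with a median of 109.8 CPM, against luteal and synchronised follicular medians of 97.8 and 40.4 CPM. The natural mean was 2.02 above the synchronised follicular mean for OAS1 and 1.41 for OAS2. In Suffolk the natural mean was below the synchronised follicular mean, by a log2 difference of -0.99 for OAS1 and -0.69 for OAS2. The difference between breeds in this contrast was not tested.

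The members also varied together among natural ewes, which the ranking did not use. Over the 38 natural ewes, each centred on the mean of its breed, the correlation of a member with the mean of the other members had a median of 0.61, with quartiles of 0.46 and 0.75. For all 15448 genes the median was 0.21. The correlation was above 0 for 195 of 200 members and for 65.9% of all genes. These points share library, depth and tissue composition, and the values are descriptive. Among named members TEX14 had the highest correlation, 0.85, and NRG2 the lowest, 0.24, with OAS1 at 0.68 and AQP9 at 0.30. The natural ewes with the highest members' mean were NWS replicate 3 at 3.59, Fur replicate 5 at 3.48 and Fur replicate 7 at 3.29.

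Breeds were compared with Suffolk within the natural follicular phase, which is independent of the ranking, by the edgeR quasi-likelihood test over all 15448 genes with Benjamini-Hochberg adjustment. A gene was called at an adjusted p under 0.05 and a fold change above 1.5. The 3 comparisons share the 8 Suffolk ewes. The median log2 fold change of the members was 0.05 in Belclare, 0.33 in Fur and 0.32 in NWS, beside -0.02, -0.02 and 0.01 for all genes. Members with a positive fold change made up 56%, 69.5% and 70% of the 200, beside 46.7%, 48.4% and 50.7% of all genes.

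No member was called in Belclare against Suffolk, where 0.00647% of all genes were. At an unadjusted p under 0.05 there were 19 of 200 members in Belclare (9.5%), beside 9.8% of all genes. DESeq2's Wald test called 0 members as well, beside 0.142% of all genes. The smallest adjusted p of a member was 0.417. By p, the first named members were ADAM7 with a log2 fold change of 1.17 (SE 0.40), OAS1 with 1.04 (SE 0.37) and GRAMD1B with -1.42 (SE 0.46), each at an edgeR adjusted p of 0.439.

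In Fur against Suffolk 26 of the 200 members were called, 18 higher in Fur and 8 lower, and 9.46% of all genes were called, 4.76% higher and 4.7% lower. Among the named members OAS1 and OAS2 were higher in Fur, and GRAMD1B, AQP9 and PRODH were lower. The other 21 called members have no name. Whether the members or all genes had the larger share depended on the fold change threshold. With the threshold 13% of members and 9.46% of all genes were called. Without it 13% of members and 19.3% of all genes had an edgeR adjusted p under 0.05. At an unadjusted p under 0.05 there were 28.5% of members and 35% of all genes.

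OAS1 had the largest called difference of the named members. Suffolk ewes ranged from 4.10 to 14.3 CPM with a median of 5.39 CPM, and Fur ewes from 11.8 to 72.4 CPM with a median of 34.0 CPM. Of the 10 Fur ewes 9 were above every Suffolk ewe. The log2 fold change was 2.33 (SE 0.35, edgeR adjusted p = 0.00193), and OAS1 was called without each ewe in turn and under all other settings. For Belclare and NWS the OAS1 fold changes against the same Suffolk ewes were 1.04 (SE 0.37) and 1.25 (SE 0.63), and neither was called.

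OAS2 ranged from 32.5 to 76.6 CPM in Suffolk (median 44.7) and from 66.7 to 259 CPM in Fur (median 109.8), and 9 of 10 Fur ewes were above every Suffolk ewe. Its log2 fold change was 1.46 (SE 0.25, edgeR adjusted p = 0.00306). In a test against the fold change of 1.5 itself its adjusted p was 0.0904. On the interferon-response list 7 of 20 identifiers were called higher in Fur and 1 lower, beside 4.76% and 4.7% of all genes. Besides the 2 members, those higher included ISG15 (2.05, SE 0.44), MX1 (1.34, SE 0.26), ZBP1 and DHX58. LY6E was lower (-1.71, SE 0.47). None of the 20 was called in Belclare or NWS. Genes on this and the other lists have names only through the study's breed comparisons of synchronised follicular ewes. They were thus in part picked for breed differences, and their shares called are not comparable with those of all genes. Genes of other lists moved in the same comparison, with 8 of 21 epithelial junction, 9 of 29 matrix and fibroblast and 7 of 17 Notch and Wnt identifiers called lower in Fur. So were 5 of 11 uterine progesterone, 6 of 21 ion and water transport and 4 of 13 mucus and secretion identifiers. The lymphoid, lysosome, myeloid and oestrogen-response lists had 2 of 21, 2 of 24, 1 of 13 and 1 of 5 called lower. On the matrix and fibroblast list and on the myeloid list 1 identifier each was called higher. The 6 smooth muscle genes had a median log2 fold change of 1.94 with 1 called higher, and the part of cell composition in the OAS1 and OAS2 differences was not tested.

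GRAMD1B ranged from 12.8 to 217 CPM in Suffolk (median 32.6) and from 6.22 to 31.5 CPM in Fur (median 18.6). All 10 Fur ewes were below the Suffolk median, and 3 were below every Suffolk ewe. Its log2 fold change was -1.79 (SE 0.46, edgeR adjusted p = 0.0143). The value of 217 CPM belongs to Suffolk replicate 4, and leaving out single ewes gave fold changes from -1.94 to -1.15, all called. GRAMD1B lost its call with a replicate block and in the test against a fold change of 1.5, with an adjusted p of up to 0.205. Its fold changes in Belclare and NWS were -1.42 (SE 0.46) and -1.64 (SE 0.49), neither of which was called.

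AQP9 and PRODH were called less firmly. AQP9 ranged from 0.337 to 13.2 CPM in Suffolk (median 3.15) and from 0.306 to 3.64 CPM in Fur (median 0.785), with a log2 fold change of -1.72 (SE 0.57, edgeR adjusted p = 0.0422). It lost the call when any 1 of 11 of the 18 ewes was left out. PRODH ranged from 14.2 to 38.8 CPM in Suffolk (median 19.4) and from 9.33 to 23.2 CPM in Fur (median 15.8), with a log2 fold change of -0.60 (SE 0.20, edgeR adjusted p = 0.0478). It lost the call without any 1 of 12 of the 18 ewes. TEX14, next among the named members, was not called in Fur (1.02, SE 0.52, adjusted p = 0.17).

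**Figure D4:**
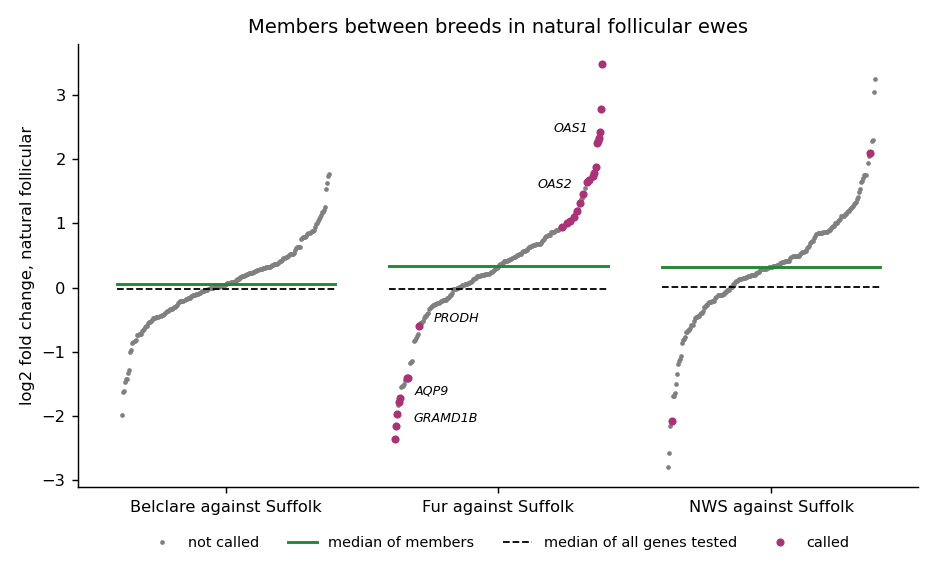
Log2 fold change of each of the 200 members against Suffolk in natural follicular ewes, sorted within each breed, with called members in purple, the members' median as a green line and the median of all genes as a dashed line. The members' medians are 0.05, 0.33 and 0.32, and 0, 26 and 2 members are called in Belclare, Fur and NWS.

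In NWS against Suffolk 2 of the 200 members were called, 1 higher and 1 lower, while 0.913% of all genes were called, 0.505% higher and 0.408% lower. Both lack a name and are given because the count is small. ENSOARG00000015032 ranged from 0.117 to 1.57 CPM in Suffolk (median 0.638) and from 0.744 to 10.9 CPM in NWS (median 2.11), and 8 of 10 NWS ewes were above every Suffolk ewe (log2 fold change 2.10, SE 0.49, edgeR adjusted p = 0.0478). ENSOARG00000006194 ranged from 0.895 to 13.2 CPM in Suffolk (median 1.504) and from 0.315 to 1.38 CPM in NWS (median 0.727), and 6 of 10 NWS ewes were below every Suffolk ewe (log2 fold change -2.07, SE 0.49, adjusted p = 0.0478). The same identifiers were called in the same directions in Fur, against the same Suffolk ewes, at 2.25 (SE 0.56) and -2.15 (SE 0.59).

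The NWS calls depended on single ewes. In 13 of the 18 fits with 1 ewe left out, no member was called. NWS natural replicates 4 and 10 had 31.5 and 36.3 CPM of the mitochondrial gene COX-1, within the range of Fur ewes, while the other natural NWS ewes had 764 CPM or more. Without these 2 ewes no member was called, and none of all 15448 genes either, so that loss is not particular to the members. Among named members GRAMD1B came closest in NWS (-1.64, SE 0.49, adjusted p = 0.0853), followed by TEX14 at 1.41 (SE 0.58, adjusted p = 0.182) and FMO2 at 2.04 (SE 0.89, adjusted p = 0.209).

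Suffolk natural replicate 6 weighed most on both Norwegian comparisons. It had the highest members' mean of the 8 Suffolk ewes, 3.25 against 1.96 to 2.98 in the others. Without it 57 of the 200 members were called in Fur, 49 higher and 8 lower, and 28 in NWS, 23 higher and 5 lower. Of all genes 14.8% and 6.10% were then called in Fur and NWS. Without each of the other Suffolk ewes the count was 14 to 32 in Fur and 0 to 7 in NWS. Of all genes 5.79% to 10.97% were called in those Fur fits and 0.0194% to 2.84% in those NWS fits.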

How the data were processed

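Cervical libraries were prepared with a stranded mRNA kit. Trimmed reads were aligned by the authors to Oar_v3.1 with STAR (2.6.1b in the submitters' processing notes), and uniquely mapped pairs were counted per Ensembl gene by featureCounts of Subread 1.6.3. They deposited raw counts per gene and library without normalization, and whether counting used the strand is not given in the sources used here. All other values were computed from those counts. Reads that match near-identical genes are lost by unique mapping, so levels of gene families such as OAS1 and OAS2 may be too low. CPM is not scaled by gene length, so levels of different genes were not compared.

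The members and the gene lists were chosen with earlier results of these data known. Groups came from the sample labels, and 1 library with conflicting labels was left out. Gene names came from the study's supplementary tables, which name 1352 identifiers. No genome, promoter or protein sequence matched to these identifiers was used here, so no position or sequence is given. The named genes are all named members, the members on the lists, the named members of smallest p in each breed comparison and the 2 unnamed members of highest rank. The unnamed members called in NWS were added after their values were seen.

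For every breed against Suffolk, the natural follicular ewes of that pair were fitted alone with edgeR 4.0.16 in R 4.3.3, TMM normalization, the quasi-likelihood F test and Benjamini-Hochberg adjustment over 15448 genes. The standard error is the size of the log2 fold change over the square root of F. In simulated counts for these comparisons, 200 of 15448 genes were changed by a log2 of 2. The changed genes were drawn only from those above a minimum mean count. The test called 94%, 94% and 89.5% of them for Belclare, Fur and NWS, with 6, 8 and 7 false calls. In the real data the median standard error was 0.40, 0.39 and 0.42 for the members, beside 0.18, 0.17 and 0.22 for all genes. The simulated shares therefore do not carry over to the members. Each library is taken from its label to be a separate ewe. Alternatives were DESeq2 1.42.0's size factors and Wald test, other filters, thresholds and scalings, all breeds in 1 fit, a block by replicate number, and each ewe left out.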

Additional observations from a re-analysis of the deposited data

Results flagged for a closer look

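In groups of 4 to 10 ewes, a value was singled out when its gap to the nearest other ewe took up more of the group's range than Dixon's 95% limit allows, which chance alone does in about 1 of 20 groups. Over 154 groups of the members' mean, the 11 named members and the 2 unnamed members of highest rank, 12 values were singled out. The members' mean was 3.43 in Belclare luteal replicate 7 (4.10 to 4.56 in the others), 3.76 in Fur synchronised follicular replicate 3 (2.11 to 2.73) and 3.86 in Fur luteal replicate 8 (4.23 to 4.55).

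Fur synchronised follicular replicate 3 was also singled out for ADAM7 at 36.4 CPM (0.216 to 1.30 in the others), AQP9 at 111.1 CPM (0.324 to 5.84), ENSOARG00000010539 at 135.1 CPM (1.30 to 10.1) and ENSOARG00000020438 at 105.5 CPM (0.941 to 9.74). Not every member was raised in this ewe, since FMO2 was at 0.658 CPM, OAS1 at 4.77 CPM and TFAP4 at 6.69 CPM, each within the range of the other 7 ewes. Fur synchronised follicular replicate 6 had 1.66 CPM of FMO2 (0.200 to 0.658 in the others).

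Belclare luteal replicate 7 had 15.1 CPM of AQP9 (48.4 to 165 in the others), and Fur luteal replicate 8 had 0.571 CPM of NRG2 (17.7 to 34.9). Among natural ewes, Belclare replicate 6 had 24.7 CPM of AQP9 (0.278 to 3.64) and 39.9 CPM of PRODH (18.1 to 27.0).

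The library whose labels conflict had a members' mean of 3.65, above all Suffolk natural follicular ewes (1.96 to 3.25) and within the Suffolk luteal range (2.84 to 4.61). Of the 200 members, 105 were higher in it than in every Suffolk natural ewe and 183 were within the Suffolk luteal range. Every Suffolk luteal ewe was above every Suffolk natural ewe for only 11 members, so a value in the luteal range can also lie in the natural range. The same counts were not made over all genes or for other libraries, and the phase of this library was not tested. It had 23.0 CPM of AQP9, 12.9 CPM of OAS1 and 2.01 CPM of ADAM7.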

How the results depend on the processing

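Of the 200 members, 192 remained with TMM-scaled libraries, 150 with a pseudocount of 2, 143 when ranked by the mean of the breed differences, 200 with no filter and 185 with 1 CPM in 37 libraries. The natural follicular medians kept their direction in every breed under TMM scaling and a pseudocount of 2. In Fur against Suffolk, 15 of the 122 members with 10 counts in every ewe were called in place of 26, beside 8.64% of all genes so filtered. In a test against the fold change of 1.5 (glmTreat) 2 members were called, beside 0.110% of all genes. Leaving out single ewes gave 14 to 57 calls in Fur. The count moved by over 1.5 times without Fur replicates 1, 4, 6 or 8 or Suffolk replicates 2, 3, 8 or 9 (14 to 17 calls) and without Suffolk replicate 6 (57). In NWS, 15 members (7.5%) were called by DESeq2's Wald test, beside 5.66% of all genes, and 19 (9.5%) in 1 fit of all breeds, beside 7.47%. No member was called with no filter or with 10 counts in every ewe, beside 0.491% and 0.802% of all genes. By glmTreat, or without the 2 ewes of low COX-1, 0 members and 0% of all genes were called. Leaving out single ewes gave 0 to 28 calls in NWS, with 0 in 13 of 18 cases, and 3 to 943 of all genes were called in these fits. Belclare stayed at 0 members under every setting, where at most 0.142% of all genes were called.

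With a replicate block over the 8 shared replicate numbers, 32 members (16%) were called in Fur (30 higher, 2 lower), beside 6.10% of all genes. In NWS and Belclare 0 members and 0% of all genes were called, so these zeros are not particular to the members. Ewes of the same number had a median r of 0.10, 0.11 and 0.04 between Suffolk and Belclare, Fur and NWS. For ewes of different numbers it was -0.02, -0.03 and -0.01. Over the 3 comparisons, r of same-numbered ewes ranged from -0.26 to 0.41. With 8 pairs in each comparison, whether the numbers pair ewes cannot be told. OAS2 lost its call under glmTreat, and GRAMD1B under glmTreat and the replicate block. AQP9 was called in 3 of 7 other settings and PRODH in 3 of 8, with adjusted p up to 0.403 and 1. The causes were not tested. Depth limits the members under 1 CPM in follicular ewes, where few counts stand behind a value.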

Other observations

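ENSOARG00000020438, at place 3 and without a name, split the luteal ewes within breeds. Its luteal level ranged from 17.4 to 768 CPM in Belclare (median 145), 39.3 to 234 CPM in Fur (median 93.3), 0.182 to 314 CPM in NWS (median 69.5) and 2.44 to 306 CPM in Suffolk (median 14.1). Natural follicular medians were 7.64, 3.75, 1.65 and 3.18 CPM. The NWS luteal ewe of lowest level was replicate 6, 1 of the luteal libraries that stood apart in the members' mean. Its 0.182 CPM rests on 3 counts or fewer. The lowest natural NWS ewe had 0.441 CPM, so few counts stand behind the order of these 2 ewes.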
